A study of Mus musculus with 8 samples.

Results

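The microRNAs described here are the products of the miR-132 and miR-212 genes, mmu-miR-132-3p, mmu-miR-212-3p and mmu-miR-212-5p (mmu for mouse, left out from here on), in whole kidneys of Akita and control mice. They were taken by name, as 3 of the 1881 mouse miRNAs with probes on Agilent one-colour arrays. The fourth product of the pair, miR-132-5p, is also on the arrays and is given beside them. Akita kidneys came from male mice of the strain C57BL/6-Ins2Akita/J (4 samples) and control kidneys from male C57BL/6J mice (4 samples), and the age is labelled 36, without a unit, for all. The Akita mutation of the insulin gene Ins2 makes proinsulin misfold in pancreatic beta cells, which leads to diabetes early in life. How many copies of the mutation the mice carried is not stated in the labels, nor what the word Mock in the titles of the control samples stands for. Separate mice are likewise not stated for the samples of a group, so p-values measure only the spread between these samples. Akita arrays occupied row 2 of the slide and control arrays row 1, and an effect of the row cannot be told apart from that of the group.

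MiR-132 and miR-212 are made from 1 primary transcript. Its promoter carries cAMP response elements bound by CREB, a transcription factor that is phosphorylated after signals through cAMP, calcium or growth factors, and in neurons the pair is induced by activity and by the neurotrophin BDNF. Outside the brain, miR-132 is known from growing endothelium, where it lowers the Ras inhibitor p120RasGAP, and both miRNAs are induced by angiotensin II in the heart, the arterial wall and the kidney of rats. In mouse kidneys with fibrosis, miR-132 is known for promoting the proliferation of myofibroblasts.

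The 3p arms form a seed family, and the 5p arms do not belong to it. The mature sequences, from RefSeq (GRCm38.p6), are shown because the seed, bases 2 to 8 from the 5′ end and in capitals here, sets which messenger RNAs a miRNA can pair with.
miR-132-3p: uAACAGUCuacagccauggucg
miR-212-3p: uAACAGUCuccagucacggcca
miR-212-5p: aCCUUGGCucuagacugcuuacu
miR-132-5p: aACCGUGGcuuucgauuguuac
That table holds 1679 mature mouse miRNAs, and 1608 of the 1881 on the arrays were found in it. Among the 1679, no other miRNA has the seed of the 3p arms, and none shares that of either 5p arm. MiR-132-3p and miR-212-3p are identical over their first 9 bases and at 17 of 22 bases in all. Counted from the 5′ end, with the base of miR-132-3p first, they differ by A10C, C14U, U17C, U20C and G22A.

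The hairpins lie on the plus strand of chromosome 11, 203 bases apart, with Mir212 first. Mir212 spans chr11:75173388-75173478 and Mir132 spans chr11:75173682-75173747 (GRCm38.p6), between the protein-coding genes Hic1 and Ovca2. They are shown with both mature arms in capitals, to set the measured products in their precursors.
Mir132: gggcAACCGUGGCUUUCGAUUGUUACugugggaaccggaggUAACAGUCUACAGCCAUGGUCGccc
Mir212: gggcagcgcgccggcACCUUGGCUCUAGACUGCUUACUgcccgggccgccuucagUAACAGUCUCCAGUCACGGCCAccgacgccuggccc

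Each arm was read by 2 probes, printed 15 times each per array. The probes are complementary to the 3′ end of the miRNA, and the shorter probe of a pair lacks 1 base of the longer. The probes of the 3p arms are shown 5′ to 3′, with capitals at the bases opposite the positions where the 3p arms differ.
miR-132-3p, 16 bases: CgAccAtgGctgTaga
miR-132-3p, 15 bases: CgAccAtgGctgTag
miR-212-3p, 14 bases: TgGccGtgActgGa
miR-212-3p, 13 bases: TgGccGtgActgG
Every one of these probes covers all 5 differing positions, and the full complement of none of them is found in another mature miRNA of the table. The array annotation places the longer probes at chr11:74987232-74987246 for miR-132-3p and at chr11:74986954-74986966 for miR-212-3p in the mm9 build, given here as deposited; each interval is 1 base shorter than its probe. Probes differ in length and affinity, so the signal of one miRNA was not set against that of another.

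The members differed in whether they were measured at all. MiR-212-3p was well above background on all 4 Akita and all 4 control arrays, on 118 of its 118 usable spots in the Akita group and 118 of 118 in the control group. MiR-132-3p was above background on none of the Akita arrays and on 1 control array, with 4 of 118 spots flagged as above background in the Akita group and 23 of 116 in the control group. MiR-212-5p was above background on no spot, 0 of 118 in the Akita group and 0 of 117 in the control group, and the same was true of miR-132-5p. Here an array counts as above background for a miRNA if at least 0.5 of the spots of 1 of its probes carry the flag of the scanner software. On none of the 8 arrays were 1531 of the 1881 miRNAs above background, and 257 were so on every one. In RNA from a whole organ, fewer cells of a type and less miRNA per cell cannot be told apart.

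The 3p arm of miR-212, the member that was measured on every array, did not pass the threshold in Akita kidneys. For mmu-miR-212-3p the summed spot signal before any scaling was 257.3, 219.9, 241.4 and 256.4 in the Akita kidneys and 256.2, 259.1, 244.1 and 259.6 in the control kidneys. Akita replicates 2 and 3 lay below the lowest control kidney, Akita replicates 1 and 4 lay among the controls, and the groups overlapped.

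The reference used for scaling differed between the groups, and the value for miR-212-3p depends on it. The 75th percentile of the 451 probes above background on all 8 arrays was 446.2, 435.1, 432.9 and 368.8 in the Akita arrays, against 495.4, 503.4, 508.1 and 520.0 in the control arrays. All Akita arrays were thus dimmer than all control arrays, with Akita replicate 4 the dimmest. The means were 420.8 ± 35.2 for Akita and 506.7 ± 10.3 for control (SD, n = 4 each).

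After each array was divided by that percentile, miR-212-3p stood at 267.4, 234.3, 258.6 and 322.5 in the Akita kidneys and at 239.8, 238.7, 222.8 and 231.5 in the control kidneys. Akita replicate 4 was the highest of all, and Akita replicate 2 lay below 2 of the control values. The log2 means of the Akita kidneys were 8.07 ± 0.19, against 7.86 ± 0.05 for the control kidneys (SD, n = 4 each). The log2 fold change, Akita minus control, was 0.21 ± 0.10 (SE), or 1.15-fold with a 95% interval from 0.99 to 1.34. limma gave an adjusted p = 0.17 over the 285 miRNAs tested and an unadjusted p = 0.063. Of those 285 miRNAs, 42 were called at an adjusted p under 0.05, which is 14.7% (24 higher in Akita, 8.42%, and 18 lower, 6.32%), and the single tested member, miR-212-3p, was not among them. Its rank by p was 106, and 173 of the 285 had a smaller absolute change.

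**Figure D1:**
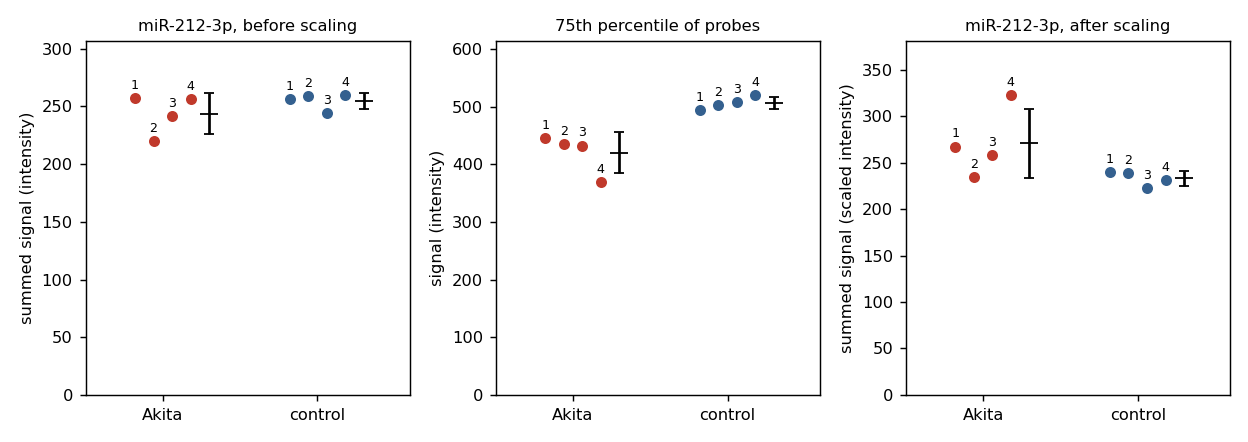
Signal of miR-212-3p summed over its probes before scaling (left) and after scaling (right), and the 75th percentile of the probes above background on all 8 arrays (middle), each on a linear intensity axis from 0. Points are single arrays with their replicate number, and the bar is mean ± SD (n = 4); the Akita kidneys have 219.9 to 257.3 before scaling and 234.3 to 322.5 after it, against 244.1 to 259.6 and 222.8 to 239.8 in control kidneys.

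The sign of that change depended on the reference for scaling. Without scaling, the log2 fold change of miR-212-3p was -0.07 (95% interval -0.22 to 0.09, limma adjusted p = 0.44), and scaled to the labelling spike-ins it was -0.04 (-0.18 to 0.10, adjusted p = 0.65). Over the 285 miRNAs the log2 fold changes had a median of 0.06 with the percentile, of -0.21 on unscaled arrays and of -0.18 after spike-in scaling. Measured from that median, miR-212-3p stood at 0.14 in each of these cases. That distance could not differ, because these settings divide all miRNAs of an array by the same factor. With normexp background correction miR-212-3p stood at 0.06 from the median. The calls over all miRNAs split into 24 higher and 18 lower with the percentile, 5 and 104 on unscaled arrays, 7 and 109 after spike-in scaling, 10 and 4 when all probes entered the percentile, and 81 and 8 with normexp.

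A single array carried much of the scaled difference. Without Akita replicate 4 the log2 fold change of miR-212-3p was 0.06 (limma adjusted p = 0.62), and without any other single array it lay between 0.15 and 0.25. Over all 26 alternatives the adjusted p ran from 0.055 to 0.65, and none reached the threshold.

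**Figure D2:**
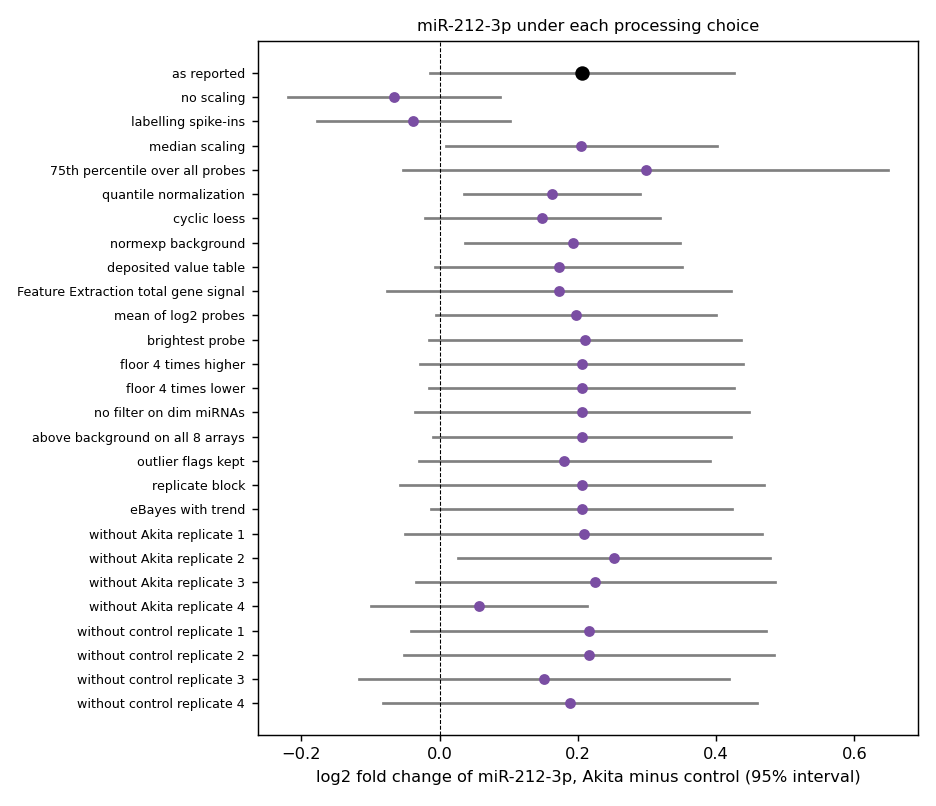
Log2 fold change of miR-212-3p, Akita minus control, with its 95% interval, as reported (black, 0.21) and under each of 26 alternative processing choices (purple). The point lies below 0 without scaling and with the labelling spike-ins and above 0 elsewhere, and it is nearest to 0 among the fits with an array left out when Akita replicate 4 is omitted (0.06).

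The 2 probes of miR-212-3p moved alike. The 14-base probe had scaled means of 220.8, 189.4, 209.1 and 263.3 in the Akita kidneys and 195.4, 193.2, 179.6 and 189.2 in the control kidneys. Its log2 fold change was 0.21 ± 0.10 (SE, limma adjusted p = 0.17 over 511 probes). The 13-base probe had 46.6, 44.9, 49.5 and 59.2 in the Akita kidneys and 44.4, 45.5, 43.2 and 42.3 in the control kidneys, and limma gave it a log2 fold change of 0.18 ± 0.09 (SE, adjusted p = 0.19). Neither was among the called probes, which were 10.8% of those tested. Both probes were highest in Akita replicate 4, and their groups overlapped through Akita replicate 2. The probes share all but 1 base, so they are no independent readings.

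The better studied 3p arm, that of miR-132, gave signals a little above the negative controls. For mmu-miR-132-3p the summed signal of the probes before scaling was 25.4, 25.3, 20.04 and 21.9 in the Akita kidneys, against 48.0, 22.7, 18.8 and 27.8 in the control kidneys. Control replicate 1 stood alone at the top, and the other kidneys overlapped between the groups. The mean signals of the negative-control probes lay between -1.29 and 3.91 on the 8 arrays, whereas the lowest mean of a miR-132-3p probe was 5.36.

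The 16-base probe showed the same kidney as high. Its mean over the spots of an array was 14.6, 14.6, 13.4 and 14.0 in the Akita kidneys, against 29.3, 13.3, 13.5 and 17.5 in the control kidneys. In control replicate 1 all 14 usable spots of that probe were above background, with a lowest spot of 22.5, while Akita replicates 1 to 4 had 2, 1, 0 and 1 such spots of 15, and control replicates 2 to 4 had 0 of 13, 1 of 15 and 3 of 15. The 15-base probe was above background on 5 of 15 spots in control replicate 1 and on no spot of any other array. The spots of 1 array come from 1 hybridisation and are no replicates of a kidney.

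**Figure D3:**
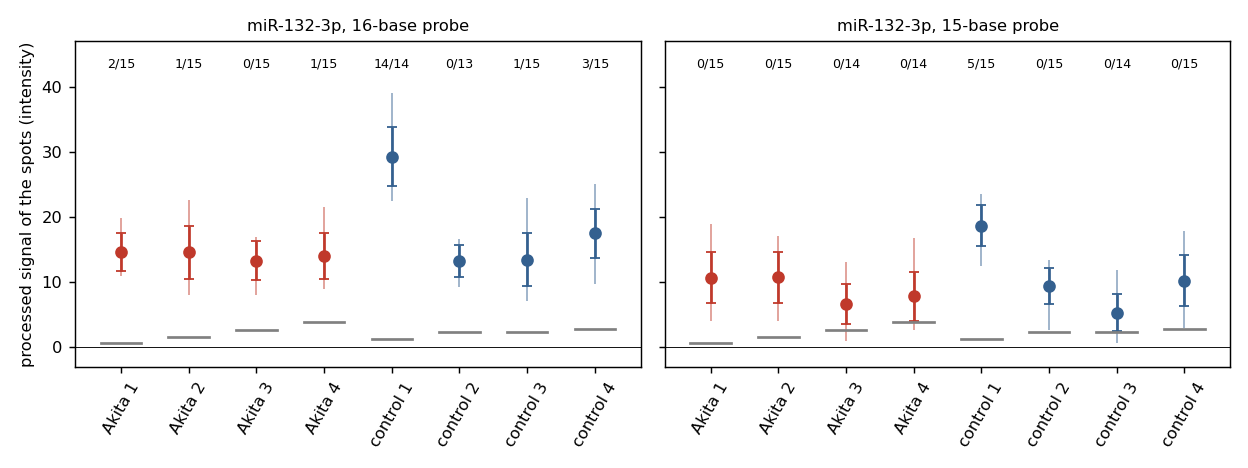
Processed signal (linear intensity) of the spots of the 16-base and the 15-base probe of miR-132-3p on each array: points are means, thick bars the SD over spots, thin lines the lowest to the highest spot, grey ticks the highest mean among the negative-control probes of that array, and the fractions give spots above background of spots used. Control replicate 1 has 14 of 14 and 5 of 15, and no other array exceeds 3 of 15.

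At the reported setting no test was made for miR-132-3p, because it was not above background throughout either group. Its scaled signal averaged 25.6 ± 2.8 in Akita kidneys and 26.9 ± 12.4 in control kidneys (SD, n = 4 each), and the mean of the 3 control kidneys without replicate 1 was 20.95 ± 3.79. With sums under the floor of 23.8 set to that floor, the log2 difference, Akita minus control, was -0.11, and it was 0.11 without control replicate 1. When dim miRNAs were kept in the limma fit, its adjusted p was 0.67. The 95% interval of that fit ran from -0.67 to 0.45 on the floored log2 scale. Control replicates 2 and 3 and Akita replicate 3 were at the floor, and with a floor 4 times lower the log2 difference was 0.02.

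Control replicate 1 also gave signal for other miRNAs that no other array showed. It had 327 miRNAs above background, against 274 to 298 in the Akita kidneys and 295 to 312 in the remaining control kidneys. Of the 22 miRNAs that were above background on exactly 1 array, 14 were so in control replicate 1, among them miR-132-3p. Its part in the value of miR-132-3p was not tested.

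The 5p arms, cut from the other side of each hairpin, were above background on no array. For mmu-miR-212-5p the summed signals were 0.30, 2.62, -0.20 and 0.40 in the Akita kidneys and 2.18, 1.68, -2.54 and -2.20 in the control kidneys. MiR-132-5p had -1.90, -3.62, -1.91 and 0.08 in the Akita kidneys and -1.28, -0.97, -1.72 and -1.99 in the control kidneys. All sums were far under the floor of 23.8, so at the reported setting no fold change was formed from them.

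The deposited value table gives a ratio for every member on every array, and for 2 of the 3 members that ratio does not follow the spots. Each of its values is the software's total signal of the miRNA, scaled by an array's own factor and set against the miRNA's median over the arrays. Computed so, 1856 of 1881 miRNAs came out within 1% of the authors' deposited values on all arrays. Where the software did not call a miRNA detected, the total is the fixed value 0.1. For 1437 of the 1881 miRNAs that was so on every array, so a match of their ratios reflects only the array factors and tests nothing about their signals.

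For miR-212-3p the ratios followed the scaled spots. In the authors' deposited table they were 1.08, 0.993, 1.12 and 1.27 in the Akita kidneys, against 0.995, 1.01, 0.967 and 0.982 in the control kidneys. Akita replicate 4 was again the highest and Akita replicate 2 lay within the control values. limma on these ratios gave a log2 fold change of 0.17 (adjusted p = 0.17).

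For miR-132-3p the ratios in the authors' deposited table were 0.967, 1.03, 0.967 and 1.09 in the Akita kidneys, against 2.92, 0.0287, 0.836 and 1.04 in the control kidneys. Control replicates 1 and 2 thus lay 101.9-fold apart in that table, while their summed spot signals were 2.11-fold apart. The software's total was 10.2 in control replicate 1, the sum of its 16-base probe at 6.21 and its 15-base probe at 3.97. On the 4 Akita arrays and on control replicates 3 and 4 the total was that of the 16-base probe alone, 2.83 to 3.11 in the Akita kidneys, 2.86 in control replicate 3 and 4.92 in control replicate 4. In control replicate 2 it was the fixed 0.1, although the 16-base probe there had 2.82, close to the 2.86 of control replicate 3. The difference between the group means of the log2 ratios was 0.96, Akita minus control, with that fixed value among the 4 control values. For miR-212-3p the software's total was highest in control replicate 4, at 72.9 against 51.8 to 54.9 in the other control kidneys. Its summed spot signal there was 259.6, against 244.1 to 259.1 in the others. Over the arrays, 119 of the 1881 miRNAs, or 6.33%, were detected by the software on some arrays and not on others, and 25 of these were missed on 1 array only, as miR-132-3p was.

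For miR-212-5p the ratios in the authors' deposited table were 1.03, 1.11, 1.13 and 1.22 in the Akita kidneys, against 0.951, 0.950, 0.970 and 0.700 in the control kidneys. All Akita ratios lay above all control ratios, although neither group had a spot above background. The same 8 ratios stand in the table's row for blank spots, for miR-132-5p and for 1437 of the 1881 miRNAs in all, or 76.4% (equal within 1e-09), and these 1437 are exactly the miRNAs that the software detected on no array. The difference between groups in those rows is that of the per-array factors.

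**Figure D4:**
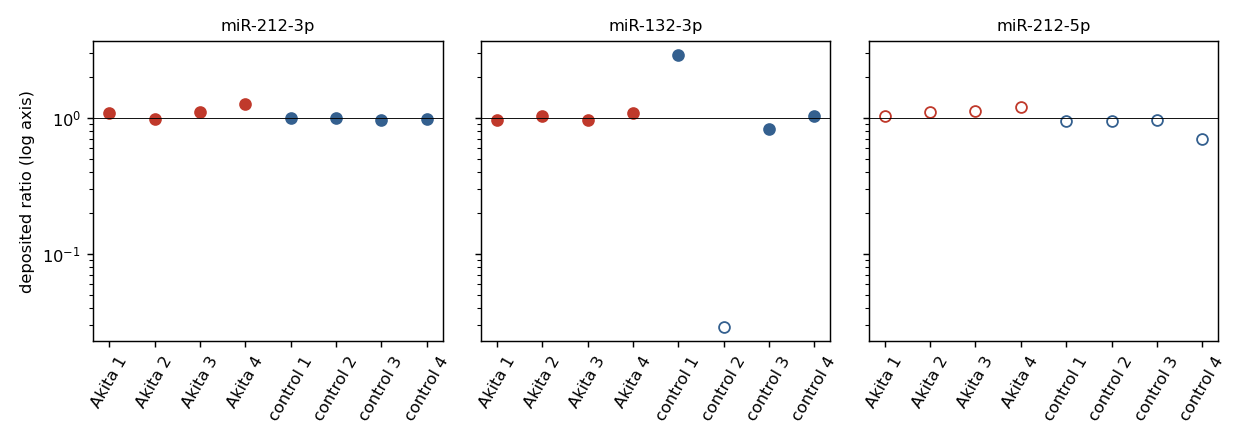
Ratio of each member in the authors' deposited table by array, on a log axis, with the line at 1. Filled points are arrays on which the scanner software called the miRNA detected and open points are arrays at its fixed value: miR-132-3p falls to 0.0287 at the single open point in control replicate 2, and all 8 points of miR-212-5p are open, with Akita at 1.03 to 1.22 and control at 0.700 to 0.970.

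Of 8 miRNAs tied to CREB or to neuronal activity, miR-132-5p among them, 3 were tested. limma called 0 of these 3 higher, beside 8.42% of all tested, and 1 lower, beside 6.32%. With 3 tested, these counts cannot be set apart from those shares. On no array were 3 of the 8 above background, against 1531 of all 1881 miRNAs; these were miR-132-5p, miR-124-3p, the major neuronal miRNA, and miR-138-5p of dendrites. MiR-134-5p was above background on 1 array and miR-128-3p on 2. MiR-219a-5p, a miRNA of the circadian clock, was above background on all 8 arrays, with log2 levels of 5.54 ± 0.15 in Akita kidneys, against 5.40 ± 0.06 in control kidneys (SD, n = 4 each), and a log2 fold change of 0.14 (limma adjusted p = 0.28). MiR-9-3p was called lower, with a log2 fold change of -0.48 (limma adjusted p = 0.049), but its groups overlapped. It was above background on 5 of 8 arrays, so it entered the test through 1 group only. Its log2 means were 4.85 in Akita and 5.33 in control kidneys, beside the floor of 4.57. MiR-9-5p from the same hairpins stood at -0.27 (limma adjusted p = 0.15).

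Among 8 miRNAs tied to fibroblast activation and fibrosis, 7 were tested, with a median log2 fold change of 0.08 beside 0.06 over all 285 miRNAs. limma called 0 of the 7, beside 14.7% of all miRNAs tested, and 2 had an unadjusted p under 0.05, beside 97 of 285 (34.0%). These 2 were the profibrotic miR-21a-5p at 0.23 (adjusted p = 0.059) and the collagen-repressing miR-29b-3p at 0.19 (adjusted p = 0.13).

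Markers of several cell types of the kidney were read on the same arrays. The endothelial arms of miR-126a had log2 fold changes of 0.14 and 0.12, and the smooth muscle miRNAs miR-143-3p and miR-145a-5p had 0.00 and -0.03. limma called 0 of these 4, beside 14.7% of all tested, and 0 had an unadjusted p under 0.05, beside 34.0%. So few miRNAs cannot set these counts apart from those shares. Of 7 epithelial miRNAs 2 were higher, beside 8.42% of all tested, and of 6 leukocyte miRNAs 5 were lower, beside 6.32% of all tested, with summed scaled signals of the 6 from 736.5 to 876.6 in Akita and from 1075 to 1239 in control. Of 5 neuronal miRNAs 1 was tested and 3 were above background on no array, and of 4 erythrocyte miRNAs 1 was tested. This was miR-451a, with scaled signals from 583.9 to 776.9 in Akita kidneys and from 87.2 to 1211 in control kidneys, and a log2 fold change of 1.24 (limma adjusted p = 0.24). The part of these cell types in the level of miR-212-3p was not tested.

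The miRNAs whose scaled log2 signals followed miR-212-3p most closely over the 8 arrays, among the other 256 above background on all of them, were miR-21a-5p (Pearson r = 0.93), miR-874-3p (r = 0.93) and miR-532-5p (r = 0.93). Their log2 fold changes were 0.23, 0.34 and 0.07, and limma called none of them (adjusted p = 0.059, 0.10 and 0.55). All 3 were highest in Akita replicate 4, as miR-212-3p was. The 8 points share the scaling factor of their array, so the correlations are a description only.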

How the data were processed

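Cy3-labelled total RNA of 8 kidney samples was read on one-colour miRNA arrays, 1 per sample, per the labels' protocols. The deposited scanner files hold spot intensity, background-subtracted by Agilent Feature Extraction 12.0.3.1 without normalization between arrays, per the file headers and the submitters' processing notes. The deposited value table gives each miRNA on each array as a linear ratio that the authors had normalized; no source used here gives the origin of its array factors.

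From these, control spots and outlier spots (2.03% to 3.02% per array) were left out, spots of each of 4415 probes averaged, signals scaled to the array's 75th percentile (taken over 451 probes above background throughout), probes summed per miRNA, sums under 23.8 (the lowest sum among miRNAs above background on all arrays; 4.57 on the log2 scale) set to that floor, and log2 taken. Values set to the floor can understate a change or shift it. No spot was saturated. The number of arrays limits the precision. The 285 miRNAs above background on all 4 arrays of a group were tested in R 4.3.3 with limma 3.58.1 (lmFit, eBayes, two-sided, Benjamini-Hochberg over all 285, 0.05), which was tested on simulated data. Alternatives were 6 scalings, normexp (offset 50), other value sources, probe summaries, floors and filters, outlier flags kept, variance trend, the replicate block and each array left out. An exact permutation test of the 3p arms against each other was planned for the case that both were above background on all arrays, and was not run.

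Members and lists were chosen with earlier results of these data known. Named miRNAs are the members, miR-132-5p, the listed miRNAs, and the 3 most correlated with each member above background on all arrays. Sequences are RefSeq's (GRCm38.p6) or the arrays'; all 4 arms matched. Promoter sequence of Mir132 and Mir212 was not analysed here.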

Additional observations from a re-analysis of the deposited data

Results flagged for a closer look

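MiR-132-3p in the control kidneys had 1 sample far from the rest: the gap between control replicate 1 and the next kidney was 0.937 of the range of the group on the floored log2 scale, over the 95% critical value of Dixon's test for 4 samples. On the unfloored linear scale the share was 0.727, under that value; 2 of the other kidneys were at the floor. Chance flags about 1 group in 20 where no values are tied at a floor, so that rate does not apply to the floored share.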

How the results depend on the processing

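MiR-212-3p was positive and not called under 24 of 26 alternatives, and was negative, at -0.066 without scaling and -0.038 with the labelling spike-ins, also not called. Leaving out single arrays gave it 0.06 to 0.25. MiR-132-3p moved by more than the spread of its replicates only with the deposited table (0.96), which holds a fixed value for 1 control array. Its sign was not stable: the difference was negative under 20 of 26 alternatives, positive under 5 and 0 under 1. MiR-212-5p, at the floor on every array, moved only with the deposited table (0.34) and with normexp (0.23). Normexp also called 1 probe of the members, against 0 under each other alternative run on probes. The 42 calls over all miRNAs became 109 without scaling, 116 with the spike-ins, 89 with normexp, 14 with the 75th percentile of all probes, 21 with the software's total signal, 9 with a floor 4 times higher, 6 without a filter on dim miRNAs and 18 to 37 without single arrays (20, 25 and 21 without Akita replicates 1, 2 and 3, and 21 and 18 without control replicates 2 and 3). The cause was not tested. With the replicate number as a block there were 25 calls, and miR-212-3p had an adjusted p = 0.31 in that limma fit. Deviations of same-numbered samples correlated between -0.35 and 0.34, and 1 of 4 Akita samples correlated best with its own number. With groups of 4, these values cannot settle whether same-numbered samples belong together. The planned test of the 3p arms against each other, and its alternatives, were not run, because miR-132-3p was above background on 1 of 8 arrays. The dim members limit this account: signals near background resolve no change.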
